A study of Mus musculus with 2 samples.

Results

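CD8 T cells of the mouse abdominal aorta were described from single-cell RNA sequencing of a Control and an AngII+HS library. The cells were chosen by their own measured values. A retained cell was taken as a CD8 T cell when it held at least 2 unique molecular identifiers (UMIs, each a captured mRNA molecule) of the CD3 genes *Cd3d*, *Cd3e* and *Cd3g* together, and at least 1 UMI of the CD8 genes *Cd8a* and *Cd8b1*. It also had to hold 0 UMIs of *Cd4*, *Trdc* and *Cd79a*, at most 1 UMI of the 3 C1q genes, fewer than 10 UMIs of *S100a8* and *S100a9*, and at most 3 UMIs of *Dcn*. This rule found 215 CD8 T cells among 35848 retained cells, of which 39 were among the 11288 cells of the Control library and 176 among the 24560 cells of the AngII+HS library.

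The mice were male C57BL/6J animals of 5 months. AngII+HS mice received angiotensin II from subcutaneous osmotic minipumps for 28 days, with sodium chloride and potassium chloride added to the drinking water, which is a model of abdominal aortic aneurysm. Control mice received saline. The matrices were given to the conditions by the sample under which each is recorded, although the 2 barcode lists have each other's lengths, and a swap of the matrices, which would turn every direction between the conditions, was not tested. The design text describes tissue of 5 mice pooled into each library, whereas the extraction protocol in the labels names 1 control mouse and 2 treated mice, so the number of animals behind each library is uncertain. The pieces of aorta were digested with enzymes, and cells were captured by the 10× Genomics 3′ method without sorting. With 1 library per condition, the condition and the library cannot be told apart, no test between the conditions was possible, and all intervals below are 95% intervals that cover counting error only.

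CD8 T cells recognise peptides presented on MHC class I through an αβ T cell receptor, with CD8 as coreceptor. Naive cells recirculate through lymph nodes, guided by the chemokine receptor CCR7, and keep the transcription factors LEF1 and TCF-1. Effector cells and many memory cells, though not central memory cells, lose this set, enter tissues, and release granzymes, perforin, chemokines and interferon-γ. CD8 T cells are among the lymphocytes found in the adventitia of diseased aortas.

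The values used by the rule are given as a description. *Cd3e* had a UMI in 71.8% of the cells in Control and 73.3% in AngII+HS. *Cd8a* was seen in 53.8% and 61.4% of the cells, and *Cd8b1* in 82.1% and 76.1%. CD8 UMIs were few: the median was 2 per cell in both libraries, and 17 of 39 cells in Control (43.6%) and 70 of 176 in AngII+HS (39.8%) entered on exactly 1 UMI. B cells, taken as cells with at least 2 *Cd79a* UMIs and no CD3 UMI, held 0 *Cd8a* and 0 *Cd8b1* UMIs among 53 Control and 733 AngII+HS cells. Just outside the rule stood 3 Control and 28 AngII+HS cells with 1 CD3 UMI, and 32 Control and 377 AngII+HS cells with no CD8 UMI. The limits on C1q, *S100a8*, *S100a9* and *Dcn* removed no Control cell and lowered the AngII+HS count from 230 to 176, so they acted on that library alone.

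Identity was also read from genes outside the rule. Levels are given as CPM, the UMIs of a gene scaled to 1000000 UMIs of the same cells. *Trac*, the constant part of the T cell receptor α chain, stood at 247 CPM (193 to 312) in Control and 283 (242 to 328) in AngII+HS, against 7.57 and 7.55 in B cells. *Themis*, needed for T cell selection in the thymus, stood at 439 and 462. *Runx3*, a transcription factor of the CD8 lineage, stood at 415 and 365 CPM, against 187 in the CD4 T cells of the AngII+HS library. *Foxp3*, *Il17a*, *Ncr1*, *Ms4a1* and *Cd79b*, which mark regulatory and IL-17-producing T cells, NK cells and B cells, were at 0 UMIs in both libraries. Other genes of these marker lists were not: *Ighm* had 12 and 20 UMIs, *Cd74* 5 and 83 and *H2-Aa* 6 and 51, and *Il2ra* and *Cd40lg* 15 and 9 in AngII+HS alone. *Klrb1c*, which encodes NK1.1, had 0 and 1 UMIs.

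The wall's other cells left RNA in these profiles, and it differed between the libraries. The 5 smooth muscle markers, with *Acta2* the highest, summed to 4801 CPM in Control and 1924 in AngII+HS, beside 5433 and 1540 in the B cells. The macrophage list, all 7 of its genes with a UMI and *Apoe* the highest in AngII+HS, summed to 69.7 and 887 CPM, beside 117 and 698 in B cells, and *Mrc1* and *Adgre1* were at 0 in Control. The fibroblast list summed to 463 and 884, with *Pdgfra* at 0 in Control, and the endothelial list to 160 and 616, with *Kdr* and *Vwf* at 0 in Control. Erythroid genes summed to 17.4 and 268, mostly *Hbb-bs*, and the 4 neutrophil genes outside the rule to 3.48 and 16.4, with *Cxcr2* and *Ly6g* at 0. The B cell list summed to 80.1 and 253, beside 7234 and 9528 in B cells. In the plasma cell list *Xbp1* was the highest and the sum was 66.2 and 96.9. The sum of each of these lists differed in the same direction in B cells, and their part in the results was not tested.

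CD8 T cells made up 0.345% of the retained Control cells (exact binomial interval 0.246 to 0.472) and 0.717% of the retained AngII+HS cells (0.615 to 0.830), a log2 ratio of 1.05. CD4 T, γδ T and B cells had larger ratios. CD4 T cells made up 0.133% and 0.558%, γδ T cells 0.106% and 0.326%, and B cells 0.470% and 2.98%, log2 ratios of 2.07, 1.62 and 2.67. NK cells, only 3 and 14, made up 0.0266% and 0.0570%, a log2 ratio of 1.10, near that of CD8 T cells. Among cells with at least 2 CD3 UMIs, CD8 T cells were a smaller share in AngII+HS, 176 of 1043 (16.9%, 14.6 to 19.3) against 39 of 107 (36.4%, 27.4 to 46.3). Before the limits on C1q, *S100a8*, *S100a9* and *Dcn*, which were not applied to the 1043, they numbered 230 and 39. CD4 T cells were 137 and γδ T cells 80 of the 1043, and 15 and 12 of the 107. CD8 cells were 72.2% of the CD8 and CD4 T cells together in Control (58.4 to 83.5) and 56.2% in AngII+HS (50.5 to 61.8). These were 54 and 313 cells. A further 32 and 377 cells with at least 2 CD3 UMIs held no CD8, *Cd4* or *Trdc* UMI and are in neither group. The part of dissociation and of depth per cell in these shares was not tested.

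Depth differed between the libraries. The median CD8 T cell held 6042 UMIs and 2257 genes in Control (1573 to 17881 UMIs), and 2826 UMIs and 1460.5 genes in AngII+HS (771 to 16114 UMIs). Summed over the cells, the Control profile rested on 287005 UMIs and the AngII+HS profile on 608703, so that 3 UMIs, the limit that a count of 0 allows, correspond to 10.5 and 4.93 CPM. Each log2 ratio sets AngII+HS over Control, with 0.5 UMIs added to each sum. A gene was compared when it had at least 20 UMIs over both libraries. Of 6133 such genes, 8.8% were at least 2-fold higher and 4.86% at least 2-fold lower in AngII+HS, and the median log2 ratio was 0.05.

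Genes of the naive and central memory state were mostly lower in AngII+HS. Of 16 listed genes, 15 reached 20 UMIs, 11 were lower and 4 higher, 7 had an interval wholly below 0 and 3 wholly above, and the median log2 ratio was -0.42 beside 0.05 over all genes. Over all genes, 3308 of 6133 were higher, 11.7% had an interval above 0 and 8.36% an interval below 0. The difference was also present in other lymphocytes: the summed list was at 6759 and 5163 CPM in CD8 T cells, 7362 and 4896 in CD4 T cells and 6840 and 5006 in B cells. *Lef1*, the Wnt-pathway transcription factor of naive T cells (gene on chromosome 3, 130903919 to 131018005, GRCm39), stood at 864 CPM (760 to 979) in Control and 343 (298 to 393) in AngII+HS, a log2 ratio of -1.33 (-1.60 to -1.06). It was seen in 35 of 39 and 86 of 176 cells. In CD4 T cells it was at 873 and 297 CPM, and in γδ T cells at 547 and 180. *Lef1* was the 1 gene of the list past 2-fold in this direction, 6.67% of the 15, near the 4.86% over all genes.

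The genes of lymph node homing and egress followed with smaller differences. *Ccr7*, the receptor for lymph node chemokines, was at 213 and 159 CPM, with an interval of the log2 ratio from -0.89 to 0.07. It was seen in 23 of 39 and 30 of 176 cells, and after every cell was thinned to 1000 UMIs in 25.6% and 9.14%. *Klf2*, the factor that keeps *S1pr1* transcribed, was at 537 and 289, and *S1pr1*, the receptor for exit from tissue, at 258 and 148, log2 ratios of -0.89 (-1.21 to -0.57) and -0.80 (-1.26 to -0.34). B cells showed a similar difference in *Klf2*, 590 and 260 CPM. *Bach2* and *Foxp1*, which restrain effector differentiation, had ratios of -0.58 (-0.80 to -0.37) and -0.46 (-0.68 to -0.23).

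Not all of the naive set was lower. *Tcf7*, which encodes TCF-1, stood at 223 CPM (172 to 285) in Control and 218 (183 to 259) in AngII+HS, and *Il7r*, the interleukin-7 receptor, at 153 and 177, both with intervals that include 0. *Ltb*, *Ms4a4b* and *Igfbp4* were higher, with log2 ratios of 0.73, 0.39 and 1.13. *Igfbp4* was also higher in B cells, at 15.1 and 55.7 CPM.

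Memory genes were mixed. Of 16 listed, 15 could be compared, 13 were higher and 2 lower, 6 intervals lay above 0 and 1 below, 2 (13.3%) were at least 2-fold higher beside 8.8% over all genes, and the median log2 ratio was 0.38. The summed list was at 2589 and 3384 CPM in CD8 T cells and 2619 and 3394 in CD4 T cells. *Cd44*, the hyaluronan receptor that marks antigen-experienced cells (chromosome 2, 102641486 to 102732010), stood at 45.3 CPM (24.1 to 77.5) in Control and 220 (184 to 261) in AngII+HS, a ratio of 2.23 (1.46 to 3.23), and its thinned share of cells was 2.56% and 20.6%. *Eomes*, a T-box factor of memory and effector cells, stood at 45.3 and 113, a ratio of 1.28 (0.46 to 2.30). *Ly6c2*, a surface protein of memory CD8 T cells, was at 265 and 521, a ratio of 0.97, but the B cells of AngII+HS carried 505 CPM of it and those of Control 3.78. *Itgb1* and *Itgal*, integrin chains for matrix and ICAM-1, had ratios of 0.78 (0.45 to 1.14) and 0.55 (0.07 to 1.07). *Il2rb*, the receptor chain for interleukin-15, stood at 394 and 396. *Id3*, a repressor kept by long-lived memory precursors, went the other way, at 387 and 159, a ratio of -1.28 (-1.69 to -0.87). With only the cells holding at least 2 CD8 UMIs, the median of the memory list was -0.01.

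**Figure D1:**
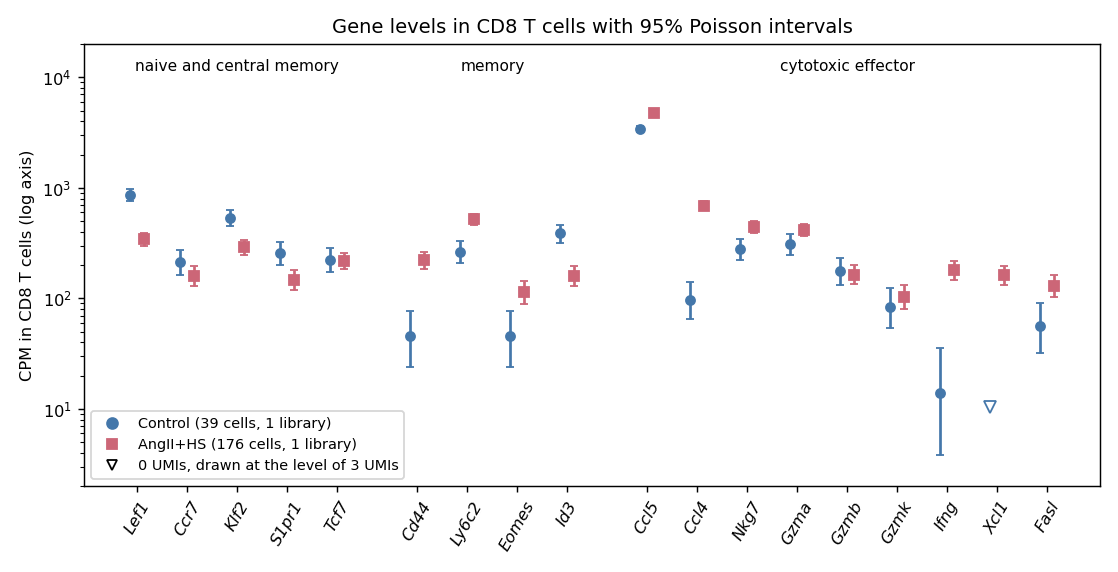
Levels of naive, memory and cytotoxic genes in the CD8 T cells of the 2 libraries, in CPM on a log axis, with 95% Poisson intervals; an open triangle marks 0 UMIs at the level that 3 UMIs would give. *Lef1* was at 864 and 343, *Cd44* was at 45.3 and 220, *Ccl4* at 97.6 and 692, and *Xcl1* at 0 and 163. The intervals of *Ccr7*, *Tcf7*, *Gzma*, *Gzmb* and *Gzmk* overlapped between the libraries.

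Cytotoxic effector genes were higher in AngII+HS as a list. Of 26 genes, 23 could be compared, 19 were higher and 4 lower, 14 intervals lay above 0 and 1 below, and 9 (39.1%) were at least 2-fold higher, beside 8.8% over all genes. These 9 were *Xcl1*, *Ifng*, *Fasl*, *Ccl3*, *Ccl4*, *Tnf*, *Tbx21*, *Zeb2* and *Serpinb9*, with no granzyme and not *Nkg7* among them. The median log2 ratio of the list was 0.66, also with *Xcl1*, which had 0 Control UMIs, set at its lower bound. The CD4 T cells differed in the same direction: the summed list was at 1196 and 4772 CPM in them, beside 6010 and 9823 in CD8 T cells, although the Control CD4 T cells were only 15.

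*Ccl5*, a chemokine stored in the granules of memory CD8 T cells (chromosome 11, 83416602 to 83425942), stood at 3418 CPM (3207 to 3639) in Control and 4771 (4599 to 4948) in AngII+HS, a ratio of 0.48 (0.38 to 0.59). The number of cells that carried it differed more than its level. It was seen in 18 of 39 and 153 of 176 cells, 43.6% and 80.6% after thinning, against 16.4 CPM in AngII+HS B cells and 0 in Control B cells. Over the cells with a *Ccl5* UMI the level was 7432 CPM in Control and 5813 in AngII+HS. Among cells with at least 2 CD8 UMIs the ratio was -0.03, since the Control cells with 1 CD8 UMI held 1405 CPM of it and the others 4962. *Nkg7*, a granule membrane protein, was at 279 and 444, a ratio of 0.66 (0.31 to 1.05), and in 10.3% and 33.1% of thinned cells.

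The granzymes, the proteases of cytotoxic granules, did not share a direction. *Gzma* stood at 310 CPM (249 to 382) and 416 (366 to 470), carried by 10 of 39 and 27 of 176 cells. It was concentrated in few cells of both libraries, 28 of its 89 Control UMIs and 83 of its 253 AngII+HS UMIs being in 1 cell, and its ratio of 0.42 became -0.09 among cells with at least 2 CD8 UMIs. *Gzmb* was at 178 (132 to 234) and 164 (134 to 200), and *Gzmk* at 83.6 (53.6 to 124) and 103 (79.5 to 132), with intervals of the ratio from -0.61 to 0.40 and from -0.39 to 1.05. *Prf1*, the pore-forming perforin, had 7 and 20 UMIs. *Gzmm* was lower, with 16 and 6 UMIs and a ratio of -2.43 (-4.14 to -1.07). B cells held 0 UMIs of *Gzma*, *Gzmb* and *Gzmk* in both libraries.

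The other chemokines and cytokines of the list are given one by one. *Xcl1*, the ligand of the receptor on cross-presenting dendritic cells (chromosome 1, 164759213 to 164763096), had 0 UMIs in the Control cells and 99 UMIs in 37 AngII+HS cells, 163 CPM (132 to 198). With 3 UMIs as the limit over the Control cells it was at least 15.6-fold higher in AngII+HS. *Ifng*, interferon-γ, had 4 UMIs in 3 Control cells and 109 in 23 AngII+HS cells, 13.9 (3.80 to 35.7) and 179 (147 to 216) CPM. *Fasl*, the death ligand, was at 55.7 and 130, with a ratio of 1.18 (0.43 to 2.09). *Ccl4*, a chemokine of activated T cells, was at 97.6 and 692, a ratio of 2.80 (2.27 to 3.43), in 9 of 39 and 105 of 176 cells. Its relative *Ccl3* had 3 and 90 UMIs, a ratio of 3.61 (2.23 to 6.13), and *Tnf* 3 and 58, a ratio of 2.98 (1.57 to 5.51). B cells also differed in these last genes: *Ccl4* was at 45.4 and 301 in them, *Ccl3* at 7.57 and 77.4, and *Tnf* at 15.1 and 57.9. They held *Xcl1* and *Ifng* at 0 and 0.629 and no *Fasl*. In CD4 T cells *Ifng* was at 0 and 226 CPM.

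Among transcription factors of the effector programme, T-bet and *Zeb2* were higher. *Tbx21*, which encodes T-bet, stood at 62.7 and 135 CPM, a ratio of 1.07 (0.35 to 1.93). *Zeb2*, which acts with T-bet in terminal effectors, was at 69.7 and 306, a ratio of 2.10 (1.46 to 2.88), beside 288 and 253 in B cells and 0 and 384 in CD4 T cells. *Id2* was at 213 and 281, with an interval from -0.03 to 0.85. *Klrg1* and *S1pr5*, of terminal effector cells, had 7 and 2 UMIs over both libraries, too few to compare. *Serpinb9*, the inhibitor that protects the cell from its own granzyme B, had a ratio of 1.18 (0.61 to 1.83).

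Genes of tissue residence were higher as a list, with 10 of 11 compared genes higher, 8 intervals above 0, none below, and 4 (36.4%) past 2-fold beside 8.8% over all genes. The median log2 ratio was 0.94. *Cxcr6*, the receptor for CXCL16 on resident T cells, was at 31.4 (14.3 to 59.5) and 130 (103 to 162) CPM, a ratio of 1.98, and *Itga1*, the collagen-binding integrin CD49a, at 38.3 and 128, a ratio of 1.69. *Bhlhe40*, a factor of resident cells, was at 90.6 and 288, a ratio of 1.64 (1.07 to 2.32). Defining members were sparse: *Itgae*, which encodes CD103, had 1 and 5 UMIs, and *Zfp683*, which encodes Hobit, had 0. *Runx3*, well detected, had a ratio of -0.19 (-0.51 to 0.15). The summed list was at 1676 and 2691 CPM in CD8 T cells and 1240 and 2554 in CD4 T cells. *Cd69* was at 174 and 240, with an interval from -0.01 to 0.95.

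Inhibitory and activation receptors had a median log2 ratio of 0.73, with 9 of 11 genes higher, 3 (27.3%) past 2-fold beside 8.8% over all genes, and intervals above 0 for 7 and below 0 for 2. The summed list was at 1916 and 2816 CPM in CD8 T cells and 3137 and 4406 in CD4 T cells. *Pdcd1*, which encodes PD-1, had 5 and 37 UMIs, a ratio of 1.69 (0.45 to 3.51), and *Tnfrsf9*, which encodes 4-1BB, had 5 and 49, a ratio of 2.09 (0.89 to 3.89). *Tigit* had 3 and 27 UMIs, a ratio of 1.89 (0.39 to 4.45). *Tox*, a factor of chronically stimulated cells, was at 157 and 253, a ratio of 0.68 (0.20 to 1.20). *Nr4a2* and *Nr4a3*, early targets of receptor signalling, had ratios of 0.96 (0.65 to 1.30) and 0.77 (0.49 to 1.07), whereas *Nr4a1* had -0.36, which became 0.20 with likely doublets removed. *Lag3* had 2 UMIs in each library, and *Havcr2*, which encodes TIM-3, 3 and 12, with an interval from -0.97 to 3.38.

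Receptors shared with NK cells had a median ratio of 0.83 over 8 of 13 genes, 3 (37.5%) past 2-fold beside 8.8% over all genes, of which 2 were *Fcer1g* and *Tyrobp*. Among genes with at least 50 UMIs the median of the list was 1.79. The summed list was at 373 and 902 CPM in CD8 T cells and 43.1 and 488 in CD4 T cells. *Klrk1*, which encodes the activating receptor NKG2D, was at 52.3 (29.3 to 86.2) and 186 (153 to 223) CPM, a ratio of 1.79 (1.05 to 2.71), with 0 and 2.20 in B cells. *Klrd1* and *Klrc1*, the chains of the inhibitory CD94 and NKG2A receptor, had ratios of 0.69 (0.11 to 1.35) and 0.82 (0.21 to 1.53). *Fcer1g* and *Tyrobp*, signal adaptors of NK and myeloid cells, had 3 and 74 UMIs, a ratio of 3.33 (1.94 to 5.85), and 0 and 64 UMIs, at least 10.1-fold higher. The B cells of AngII+HS carried nearly the same levels as its CD8 T cells, 114 and 109 CPM beside 122 and 105. UMIs of near-identical genes, such as the *Klrc* genes, *Trbc1* with *Trbc2*, or *Hspa1a* with *Hspa1b*, may be divided unevenly between copies.

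Interferon response genes were higher in AngII+HS, with 10 of 11 genes higher, 8 (72.7%) past 2-fold beside 8.8% over all genes, and a median log2 ratio of 1.30. *Isg15*, a ubiquitin-like protein, was at 13.9 (3.80 to 35.7) and 92.0 (69.5 to 120) CPM. *Ifi27l2a* had a ratio of 1.30 (0.86 to 1.78), and *Igtp*, a GTPase induced by interferon-γ, 2.12 (0.81 to 4.22). *Irf1* was lower, at 216 and 131, a ratio of -0.72 (-1.21 to -0.21). The summed list was at 679 and 1454 CPM in CD8 T cells, 949 and 2284 in CD4 T cells, and 530 and 963 in B cells, so the difference was not confined to CD8 T cells.

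The immediate-early and heat shock genes, which digestion of tissue can induce, were lower in AngII+HS, with a median of -0.58, 11 of 14 lower, 8 intervals below 0 and 2 above, and 3 (21.4%) at least 2-fold lower beside 4.86% over all genes. *Fos* was at 1589 and 621 and *Egr1* at 819 and 315. The list summed to 9613 and 6529 CPM in CD8 T cells and to 9920 and 5298 in B cells, and among cells with at least 2 CD8 UMIs its median was 0.06. The 7 compared cell cycle genes were all lower, 3 of them (42.9%) at least 2-fold, with a median of -0.95 and *Mki67* at 28 and 14 UMIs. The cell cycle median was -0.42 among genes with at least 50 UMIs and -0.59 with equal weight per cell. A pair of Control cells held 92 and 38 of the 161 UMIs of the list in that library without *Hmgb2* and *Tubb5*, which had smaller ratios of -0.15 (-0.39 to 0.10) and -0.40 (-0.72 to -0.06).

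**Figure D2:**
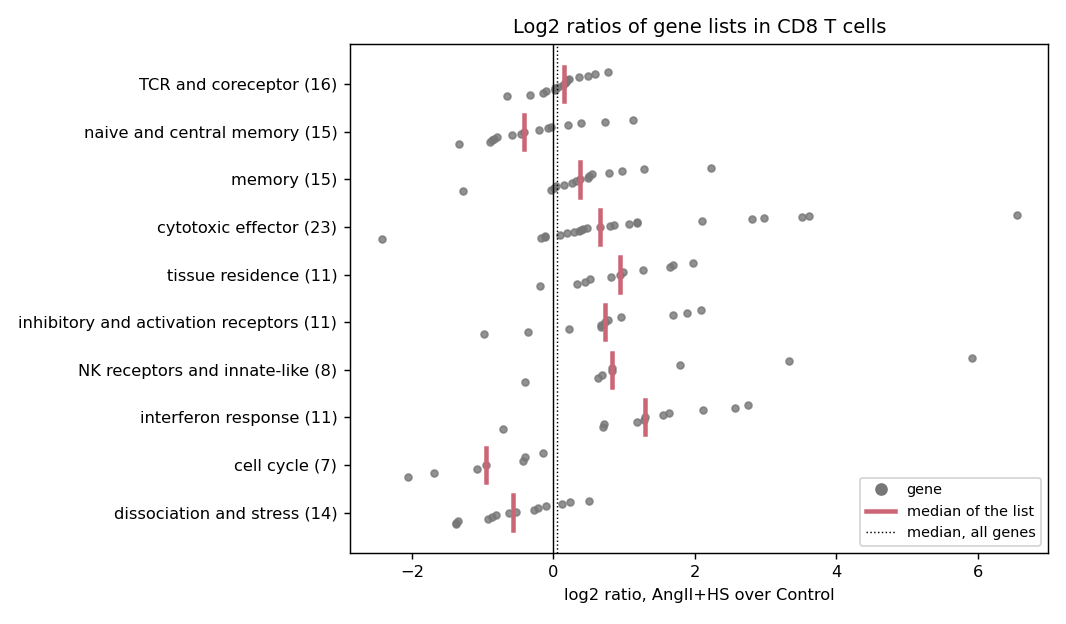
Log2 ratios, AngII+HS over Control, of the genes with at least 20 UMIs in each list, with the number of genes in brackets. Points are genes, thick bars the list medians, and the dotted line the median of all 6133 genes (0.05). Leaving aside the marker lists of other cells, the interferon list had the highest median (1.30) and the cell cycle list the lowest (-0.95). Points past 5 are genes with 0 Control UMIs, whose position depends on the 0.5 UMIs added.

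Sums over cells hide how the genes were shared among cells, so each cell was placed by its UMIs of 3 naive genes, among them *Ccr7* and *Lef1*, and 5 cytotoxic genes (*Ccl5*, *Nkg7*, *Gzma*, *Gzmb*, *Gzmk*). In Control, 14 of 39 cells had naive UMIs only (35.9%, 21.2 to 52.8), 4 had cytotoxic UMIs only (10.3%, 2.87 to 24.2), 21 had both (53.8%, 37.2 to 69.9), and 0 had neither, which at 3 counts allows up to 7.69% and by the exact interval up to 9.03%. In AngII+HS, 14 of 176 had naive UMIs only (7.95%, 4.42 to 13.0), 83 cytotoxic only (47.2%, 39.6 to 54.8), 78 both (44.3%, 36.8 to 52.0) and 1 neither (0.568%). The number of naive-only cells was the same in the libraries, 14, among 39 and 176 CD8 T cells.

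The Control cells were deeper, so every cell was also thinned to 1000 UMIs, which left out 1 AngII+HS cell. Naive-only cells were then 35.9% of Control and 10.3% of AngII+HS, and cytotoxic-only cells 23.1% (11.1 to 39.3) and 62.9% (55.2 to 70.0), while cells with both were 20.5% and 20.6%. Any cytotoxic UMI was found in 43.6% (Control) and 83.4% (AngII+HS) of thinned CD8 T cells, against 0% and 1.10% of thinned B cells. B cells do express *Ccr7*, and 37.7% and 30.5% of thinned B cells held a naive gene UMI, so they give no background level for these genes.

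The gate mattered for the Control cells. Of the 17 that entered on exactly 1 CD8 UMI, 10 were naive only (58.8%), 1 was cytotoxic only and 6 had both. Of the 22 with at least 2 CD8 UMIs, 4 were naive only (18.2%), 3 cytotoxic only and 15 had both. In AngII+HS the 70 cells with 1 CD8 UMI included 9 naive only (12.9%) and 28 cytotoxic only, and the 106 others included 5 naive only (4.72%) and 55 cytotoxic only (51.9%). At either number of CD8 UMIs the naive-only share was higher in Control and the cytotoxic-only share higher in AngII+HS. *Lef1* followed the same order, with 907 and 404 CPM at 1 CD8 UMI, and 831 and 304 at 2 or more.

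**Figure D3:**
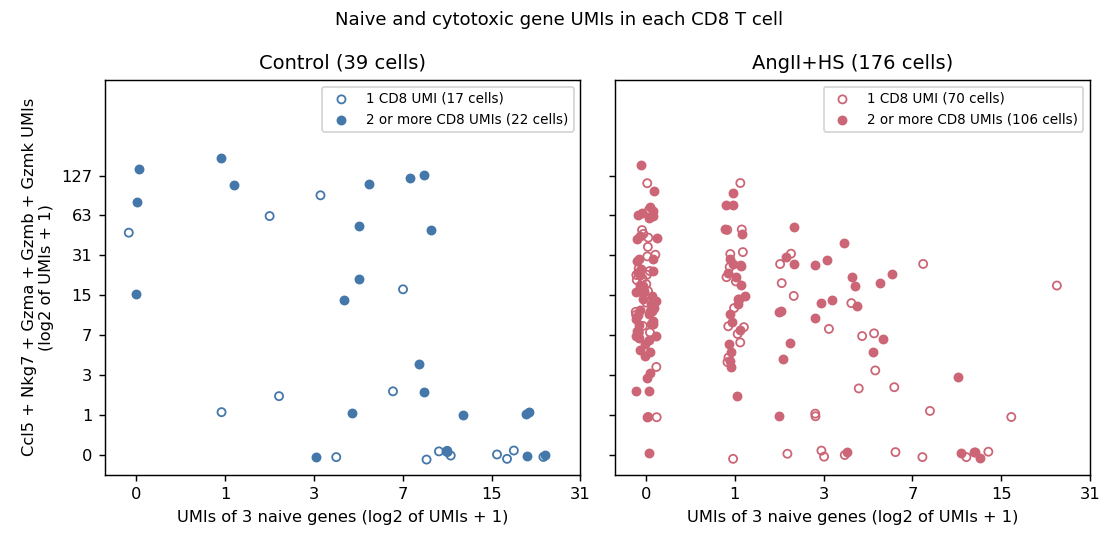
UMIs of 3 naive genes (x axis) and 5 cytotoxic genes (y axis) in each CD8 T cell of the Control (39 cells) and AngII+HS (176 cells) libraries, both as log2 of UMIs plus 1, with slight random offsets; open circles are cells with 1 CD8 UMI. In Control, 14 cells lay along the bottom without cytotoxic UMIs and 4 on the left edge without naive UMIs, and in AngII+HS 83 lay on the left edge.

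Cells at the ends of this division also differed in genes that did not define it. In AngII+HS, where 83 cytotoxic-only cells could be set beside 14 naive-only cells, 7 of the 12 other naive genes had an interval below 0 for the log2 ratio of cytotoxic-only over naive-only cells and 2 above, with a median of -1.23. Over all 3778 genes compared in this way the median was 0.13, 8.68% had an interval below 0 and 11.5% above. *Satb1*, a chromatin organiser of T cell development, was at -2.12 (-2.48 to -1.77), *S1pr1* at -1.77 (-2.82 to -0.70) and *Klf2* at -1.33 (-2.04 to -0.58). Memory genes were higher in the cytotoxic-only cells, with a median of 2.22 over 13 genes and 8 intervals above 0 and 1 below. The T cell receptor and tissue residence lists were also higher in them, with medians of 1.04 and 1.19, and 6 of 16 and 5 of 10 intervals above 0. *Ly6c2* was at 3.45 (2.09 to 5.96), *Itga4*, an integrin chain for VCAM-1, at 2.96 (1.74 to 5.02), and *Cd44* at 3.14 (1.16 to 9.04). *Id3* was lower, at -1.37 (-2.40 to -0.26), and *Bcl2*, which protects from cell death, was at -0.59 (-1.40 to 0.33).

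The NK receptors were nearly all on the cytotoxic side. *Klrk1* had 51 UMIs (211 CPM) in the AngII+HS cytotoxic-only cells and 0 in the naive-only cells. *Klrc1* had 55 (228 CPM) and 0, and *Klrd1* 62 (257 CPM) and 3 (47.6 CPM). *Ifng* had 91 (377 CPM) and 0, *Xcl1* 60 (248 CPM) and 0, *Fasl* 49 (203 CPM) and 0. A count of 0 in these naive-only cells allows up to 58.5 CPM by the exact interval. Of the effector factors, *Tbx21* had 43 and 0 UMIs. *Zeb2* was at 327 CPM in the cytotoxic-only and 270 in the naive-only cells, a ratio of 0.25 (-0.49 to 1.13). In the naive-only cells of Control *Zeb2* was at 73.9 CPM. *Zbtb16*, which encodes the factor PLZF of innate-like T cells, had 3 UMIs in the cytotoxic-only cells and 19 in the naive-only cells, all 19 in 2 of the 14 cells. In Control the cytotoxic-only side was 4 cells, too few for ratios of most genes. *Itga4* had 14 UMIs in them (780 CPM) and 2 in the naive-only cells (21.1 CPM). *Id3* had 0 UMIs in them, which by the exact interval allows up to 205 CPM, and 45 in the naive-only cells (475 CPM). Summed levels of some markers of other cells differed along the division too. In AngII+HS the macrophage genes *Lyz2* and *Apoe* had ratios of 2.51 (1.27 to 4.58) and 1.10 (0.42 to 1.92). The haemoglobin gene *Hbb-bs* was at 4.29 (2.36 to 10.2) and the smooth muscle gene *Tagln* at -2.34 (-2.90 to -1.79). The first 3 were not seen in a larger share of the cytotoxic-only cells. *Lyz2* had a UMI in 27.7% of them and 28.6% of the naive-only cells, *Apoe* in 51.8% and 71.4%, and *Hbb-bs* in 4.82% and 7.14%. Median depth was 2546 UMIs in the cytotoxic-only and 3671 in the naive-only cells. *Acta2* was at 333 and 294 CPM in the naive-only and cytotoxic-only cells of AngII+HS, and at 4465 and 668 in those of Control. The dissociation list had a median of -0.22 in AngII+HS, with 5 of 14 intervals below 0 and 1 above. The part of these genes in the other ratios was not tested. The cells were placed on their own expression, so these ratios describe how genes go together across cells and carry no test.

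**Figure D4:**
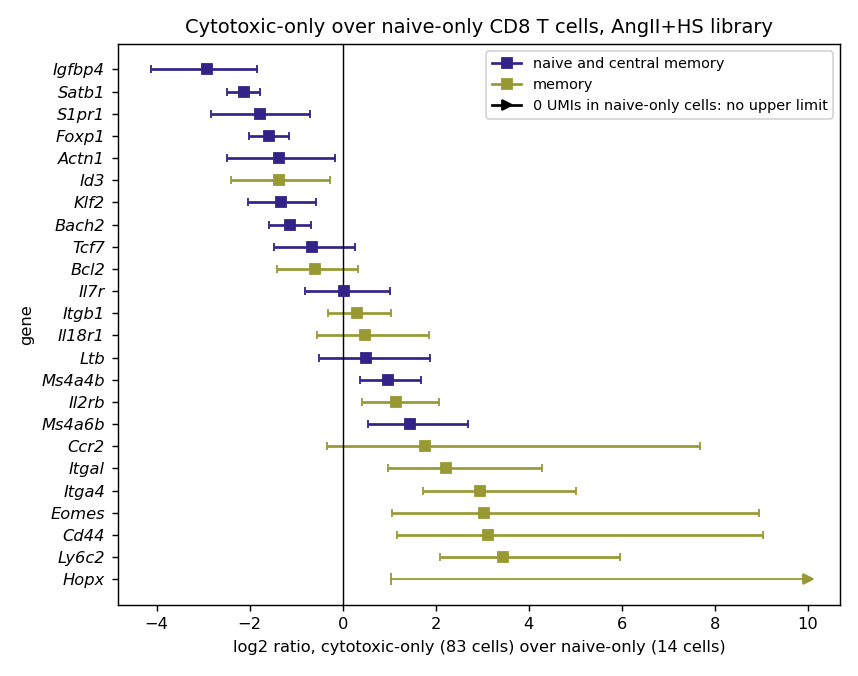
Log2 ratios of cytotoxic-only (83 cells) over naive-only (14 cells) CD8 T cells of the AngII+HS library for memory and other naive genes with at least 20 UMIs over the cells of both kinds and libraries, with exact 95% intervals. *Satb1* (-2.12) and *S1pr1* (-1.77) lay to the left and *Ly6c2* (3.45) and *Itga4* (2.96) to the right, while *Tcf7* and *Il7r* had intervals that include 0.

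Granzymes were combined differently in the cells of each library. In Control the 3 granzymes ran together: all 10 cells with *Gzma* also held *Gzmb*, and all 9 with *Gzmk* held *Gzmb*. In AngII+HS, 18 of 27 *Gzma* cells held *Gzmb* (66.7%), 15 of 45 *Gzmk* cells held *Gzmb* (33.3%) and 12 of 45 held *Gzma* (26.7%). The AngII+HS cells were shallower, so a granzyme is more often missed in them, and the part of depth in this difference was not tested. *Xcl1* was found only in cells that also had *Ccl5*, 37 of 37 in AngII+HS, and 22 of 23 *Ifng* cells had *Ccl5*, beside 86.9% of all AngII+HS CD8 T cells. *Ccl5* and *Lef1* were found together in 14 of 18 Control and 65 of 153 AngII+HS *Ccl5* cells.

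The CD8 T cells were set beside the other lymphocytes of the AngII+HS library. Of 6896 genes compared with the 137 CD4 T cells, 4.38% were at least 2-fold higher in CD8 cells and 5.58% at least 2-fold lower. Cytotoxic genes had a median log2 ratio of 0.65, with 8 of 24 past 2-fold higher and 2 lower, and NK receptors 1.23, with 5 of 7 higher. *Gzma* was at 416 and 25.1 CPM, a ratio of 4.00 (3.25 to 4.98), *Gzmk* at 103 and 5.79, a ratio of 3.95 (2.55 to 6.48), *Klrd1* at 171 and 15.4, a ratio of 3.39 (2.44 to 4.72), and *Ccl5* at 4771 and 469, a ratio of 3.34 (3.16 to 3.54). The highest ratio was 5.40 (3.45 to 11.3), for *Bend4*, with 74 UMIs in 49 CD8 cells and 1 UMI in the CD4 cells. *Ifng*, at 179 in CD8 and 226 in CD4 cells, had a ratio of -0.33 (-0.72 to 0.05).

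At the other end stood genes of helper and regulatory cells. *Il1rl1*, the interleukin-33 receptor, had 0 UMIs in CD8 and 86 in CD4 cells. *Tnfrsf4*, which encodes OX40, had 2 and 184 UMIs, a ratio of -6.44 (-9.81 to -4.88), and *Cd40lg*, the ligand by which helper cells act on B cells, had 9 and 73, a ratio of -3.18 (-4.44 to -2.25). *Il2ra* and *Ikzf2*, of regulatory T cells, had ratios of -3.13 and -3.04. Inhibitory and activation receptors as a list were lower in CD8 cells, with a median of -1.06, 8 of 14 past 2-fold lower and 2 higher, *Nr4a2* and *Entpd1*. Among the lower were *Tox*, *Ctla4*, *Icos* and *Pdcd1*.

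NK cells of the AngII+HS library were only 14, with 35899 UMIs. They held *Ccl5* at 4875 CPM, beside 4771 in CD8 T cells, *Gzmb* at 641 beside 164 and *Xcl1* at 1393 beside 163. They had 0 UMIs of *Gzmk* and *Lef1*, which in this library allows up to 83.6 CPM. The 80 γδ T cells held 454 of *Ccl5* and 38.5 of *Nkg7*. *Nkg7* was at 444 in CD8 T cells and 446 in NK cells, and *Gzmk* at 103 in CD8 T, 5.79 in CD4 T and 8.56 in γδ T cells.

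**Figure D5:**
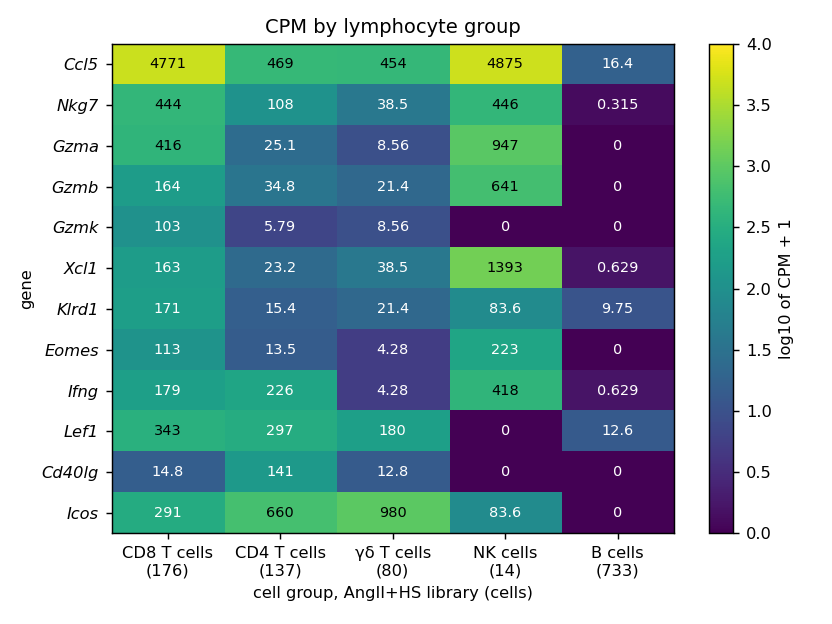
CPM of 12 genes in 5 lymphocyte groups of the AngII+HS library, with the number of cells in brackets; colour is log10 of CPM plus 1. *Ccl5* was at 4771 in CD8 T cells, 469 in CD4 T cells and 16.4 in B cells, and 0 stands for no UMI, which in the 14 NK cells allows up to 83.6.

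Among all genes that reached 50 UMIs and were seen in 10% or more of either library's CD8 T cells, the 10 with the highest AngII+HS ratios included *Spp1*, *Ccl6*, *Xcl1*, *Igkc*, *Pf4*, *Tyrobp*, *Il1b*, *Ccl2* and *Cxcl2*. Other than *Xcl1* these are genes of macrophages, platelets, neutrophils or B lineage cells, and all 8 named were also higher in AngII+HS B cells than in Control B cells. *Spp1*, for example, had 0 and 314 UMIs, 223 of them in 1 cell, and was at 177 CPM in AngII+HS B cells. *Xcl1* was the exception among the 10, with 0 and 0.629 CPM in B cells.

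The 10 lowest ratios included *Myocd*, *Ogn* and *Lmod1*, genes of smooth muscle and matrix cells, which were lower in AngII+HS B cells too. *Palld* was also among the 10, but 27 of its 42 Control UMIs were in 1 cell. Its ratio of -1.88 became -0.75 without the highest cells. It was at 37.8 and 30.2 CPM in B cells, and higher in AngII+HS CD4 T cells, at 53.9 and 127. *St8sia1*, a sialyltransferase of ganglioside synthesis, had 48 UMIs in 14 Control cells and 9 UMIs in 9 AngII+HS cells, a ratio of -3.44 (-4.71 to -2.46). *Sidt1*, a membrane protein linked to RNA uptake, was at 1094 CPM in 36 of 39 cells and at 296 in 72 of 176, a ratio of -1.89 (-2.16 to -1.62). *Adk*, adenosine kinase, was at 261 and 44.4, a ratio of -2.54 (-3.25 to -1.91). B cells held *Sidt1* at 15.1 and 14.8, *St8sia1* at 0 and 1.57, and *Adk* at 45.4 and 81.8 CPM. CD4 T cells were lower in AngII+HS for all 3, with *Adk* at 582 and 197, *St8sia1* at 162 and 29.0 and *Sidt1* at 205 and 127 CPM.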

How the data were processed

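Abdominal aortas of Control and AngII+HS mice were profiled by 10× Genomics 3′ v3.1 single-cell RNA sequencing. The deposited values are raw UMI counts of each gene and barcode, which the authors obtained from Cell Ranger (version 8.0.1 in the file headers) after it had called cells. The methods name GRCm39 and the labels mm10. The gene coordinates given are those of GENCODE M39 on GRCm39. The libraries held 11448 and 24804 barcodes and 86618995 and 117146856 UMIs. The 2 barcode lists shared 67 barcodes, and no CD8 T cell carried any of them with the lists matched to the matrices by length.

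The study's cell filter was applied: 500 UMIs and 200 genes or more, and a mitochondrial share below 20%. Doublets were not removed in the values given. CD4 T cells had at least 2 CD3 UMIs, at least 1 *Cd4* UMI and no CD8, *Trdc* or *Cd79a* UMI. γδ T cells had at least 2 CD3 UMIs, at least 1 *Trdc* UMI and no *Cd4*, CD8 or *Cd79a* UMI. NK cells had at least 2 UMIs of *Ncr1* and *Klrb1c* and no CD3 or *Cd79a* UMI. The limits on C1q, *S100a8*, *S100a9* and *Dcn* held for these groups and for B cells. UMIs were summed over the CD8 T cells of a library and divided by all UMIs of those cells. Intervals were exact Poisson for levels, exact conditional binomial for ratios and Clopper-Pearson for shares, and list medians are given beside the median of all genes. The genes named are those of the lists and the 10 highest and 10 lowest ratios, among genes that reached 50 UMIs and were seen in 10% or more of the cells of a side, without genes of the rule, mitochondrial and ribosomal protein genes; the conditions left 3225 such genes and the CD8 to CD4 comparison 3893. Alternatives were another cell filter, Scrublet in scanpy 1.11.5, other limits of the rule and other scalings, including TMM in edgeR 4.0.16. CD8 T cells, gene lists and comparisons were chosen with earlier results of these data known. The study's other assays and human samples were not analysed here, and some listed genes are counted but not reported by name. Python 3.11.15 and R 4.3.3 were used, and the interval code was tested on simulated data.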

Additional observations from a re-analysis of the deposited data

How the results depend on the processing

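No paired analysis was possible because each condition has 1 library. With at least 2 CD8 UMIs per cell, CD8 T cells were 22 in Control (0.195% of retained cells) and 106 in AngII+HS (0.432%), genes at least 2-fold lower were 189 in place of 298, naive-only cells were 18.2% of Control, the median of the dissociation list turned to 0.0623 and that of the memory list was -0.01. Under the same limit the log2 ratios of *Itga4* (-0.0599), *Gzma* (-0.0934), *Ccl5* (-0.0278), *Jun* (0.0541), *Dusp1* (0.0647), *Zfp36* (0.143) and *Dnajb1* (0.0599) changed sign. With at least 3 CD3 UMIs the AngII+HS share was 0.533% (131 cells). Removal of the cells with the highest doublet scores took out 3 Control and 19 AngII+HS CD8 T cells and turned *Nr4a1* (0.203) and *Dusp1* (0.123). Genes at least 2-fold higher and lower numbered 192 and 99 among genes with at least 50 UMIs, and 2685 and 2645 among genes with at least 1 UMI. Thinning gave 20.5% of Control cells with both gene sets, 62.9% of AngII+HS cells with cytotoxic UMIs only and 20.6% with both. The median of the NK receptor list was 1.79 and that of the cell cycle list -0.42 among genes with at least 50 UMIs, and the cell cycle median was -0.59 with equal weight per cell. The dissociation median was -0.23 with likely doublets removed and -0.37 with equal weight per cell. Across all alternatives run, the median of the naive list lay between -0.65 and -0.29, that of the cytotoxic list between 0.45 and 0.86, the interferon list between 1.19 and 1.59, and the log2 ratio of the CD8 share between 0.74 and 1.18. The values with 1 and with 2 or more CD8 UMIs side by side, and those without the highest cell, were added after the data were seen. Depth limits rare genes most: *Prf1*, *Itgae* and *Lag3* had too few UMIs to compare firmly.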
